A study of Homo sapiens with 3 samples.

Results

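A set of 9 genes used to recognise or sort stem and progenitor cells of the prostate epithelium was followed through the RNA of RWPE1 cells, an immortalized line derived from normal adult human prostate epithelium. They are CD44, CD24, EPCAM, PROM1, BMI1, DPP4, NGFR, ALCAM and ALDH1A1, 9 of the 58037 genes in the count table, and were found there by their Ensembl identifiers. Total RNA depleted of ribosomal RNA had been sequenced once for each of 3 conditions, OLFM4-wild, OLFM4-knockout and a condition labelled OLFM4-active, and the libraries, called wild, knockout and active-labelled from here on, sum to 16309906, 58837147 and 23224216 counts. The study's methods describe reporter cells that carry green fluorescent protein, made from OLFM4-wild RWPE1 cells by transfection of CRISPR/Cas9 double nickase knockout plasmids or CRISPR/Cas9 activation plasmids for OLFM4 and grown in puromycin as stable lines. RNA was purified in bulk from cells sorted for that protein. The study's methods pair the activation plasmids with the reporter cells that the study calls OLFM4-wild. The labels do not say whether the wild or the active-labelled library came from those reporter cells, or whether the wild library came from cells without a plasmid. The study also calls the edited cells clones, and the labels do not say how many clones or cultures a library stands for. There were no replicates, so every comparison is between libraries and no test across conditions could be made. Values are given as CPM, counts scaled to a common library size with trimmed mean of M values (TMM) factors, and as log2 fold changes. Each interval in parentheses is an exact (Clopper-Pearson) 95% interval that covers counting error only.

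The prostate epithelium has an outer layer of basal cells, an inner layer of secretory luminal cells and scattered neuroendocrine cells. Cells able to rebuild this tissue are isolated by antigens on their surface, since no single gene identifies them. CD44 is a receptor for hyaluronan, CD24 a small mucin-like protein held in the membrane by a lipid anchor, EPCAM and ALCAM adhesion molecules, PROM1 the pentaspan protein CD133 of membrane protrusions, DPP4 the ectopeptidase CD26 and NGFR the low-affinity neurotrophin receptor CD271, a marker of basal cells. BMI1, a polycomb protein of the nucleus, and ALDH1A1, a cytosolic enzyme that makes retinoic acid, are not surface proteins but are also used as markers. A gene-level count measures RNA. It does not show protein at the cell surface or the CD44 splice isoforms used in sorting, and in bulk RNA of sorted cells fewer cells with a marker cannot be told apart from less RNA per cell.

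OLFM4 itself, the gene the cells were edited for, had 214 counts (11.8 CPM) in the wild library, 131 (2.55 CPM) in the knockout library and 16 (0.670 CPM) in the active-labelled library. The activation label therefore goes against the measured OLFM4 level, and no direction below is read as an effect of more OLFM4. All 6 basal markers checked (KRT5, KRT14, KRT15, TP63, DST, LAMB3) averaged 1 CPM or more, as did all 4 general epithelial ones. Of 6 luminal secretory markers 1, ACP3, reached it, and KLK2 and KLK4 were at 0 in all 3 libraries. Of the markers of other tissue cells, 3 of 7 for fibroblasts and smooth muscle, 1 of 4 for leukocytes, 0 of 3 for endothelium and 0 of 3 for neuroendocrine cells reached 1 CPM, with COL3A1, DES, CDH5, LYZ and CD3E at 0 in all 3 libraries. Most basal counts came from KRT5 and KRT14, with 222265 and 72793 in the wild library against 21015 for DST and 7514 for TP63. A sum therefore does not show how each of the 6 basal markers changed. The summed basal markers were at 18128 CPM in the wild, 39423 CPM in the knockout and 21445 CPM in the active-labelled library. The fibroblast and smooth muscle markers summed to 36.7, 33.6 and 23.9 CPM in the same order, and the part of either sum in the differences below was not tested.

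**Figure D1:**
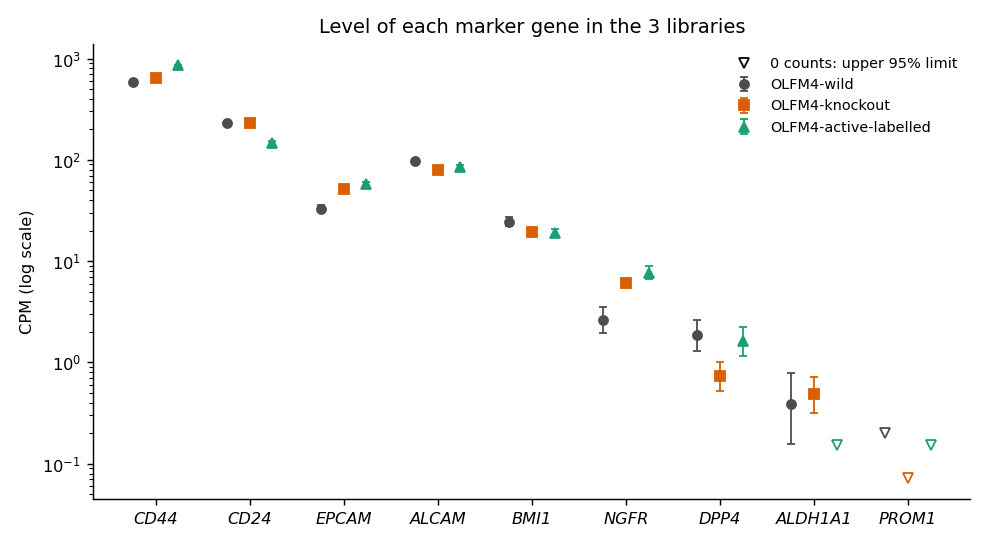
Level of each of the 9 genes in CPM (log axis) in the 3 libraries (wild, knockout, active-labelled); bars are 95% counting intervals, and an open triangle is the upper 95% limit where a library had 0 counts. CD44 was at 591 CPM or more in each library, DPP4 between 0.740 and 1.87 CPM, and PROM1 had no count.

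Of the 9 genes, 8 had a count and 7 averaged 1 CPM or more over the 3 libraries. Between genes, levels were compared per kilobase of the union of annotated exons. This union is 9992 bases for CD44, 3096 for CD24 and 14432 for DPP4. Their canonical transcripts have 5431, 2156 and 3573 bases. The orders and percentages per kilobase depend on this choice of length, and no other length was tried. In the wild library the order was CD24 (74.1 CPM per kilobase), CD44 (59.1), ALCAM (13.6), EPCAM (13.5), BMI1 (5.60), NGFR (0.638), ALDH1A1 (0.136), DPP4 (0.130) and PROM1 at 0. The intervals of the neighbours ALCAM and EPCAM overlapped, as did those of ALDH1A1 and DPP4, and no other neighbours overlapped. In the knockout library EPCAM (21.1 CPM per kilobase) stood above ALCAM (11.1). In the active-labelled library CD44 (85.9 CPM per kilobase) also stood above CD24 (47.5). CD44 was higher per kilobase than 97.9%, 97.5% and 98.3% of detected genes in the 3 libraries in the order above, and DPP4 than 16%, 14.4% and 16.9%.

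For knockout versus wild, 2 of the 9 genes lay beyond 2-fold, NGFR above and DPP4 below, where 13.3% of the 16600 genes averaging 1 CPM or more did so (5.77% above, 7.56% below). In the active-labelled library against wild 2 again lay beyond 2-fold, NGFR above and ALDH1A1 below, against 10.5% of all such genes (3.78% above, 6.73% below). In the knockout library against the active-labelled one the 2 were ALDH1A1 above and DPP4 below, against 6.34% (2.95% above, 3.39% below). These shares depended on the level: for genes with a mean from 1 to 10 CPM, where DPP4 and NGFR lie, they were 23.4%, 20.5% and 12.0% in the 3 comparisons, and for genes under 1 CPM, where ALDH1A1 lies, 55.8%, 66.0% and 55.6%. Over the 7 genes averaging 1 CPM or more the median log2 fold changes were 0.01, -0.20 and -0.16, beside 0.10, 0.05 and 0.08 over all genes. With library totals in place of TMM, the medians over all genes were -0.26, -0.07 and -0.16, so a small difference can change sign with the scaling. Values are with TMM unless totals are named, and totals lower each value of a comparison by nearly the same amount. All 3 comparisons share libraries pairwise, and a gene's 3 values are not independent.

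**Figure D2:**
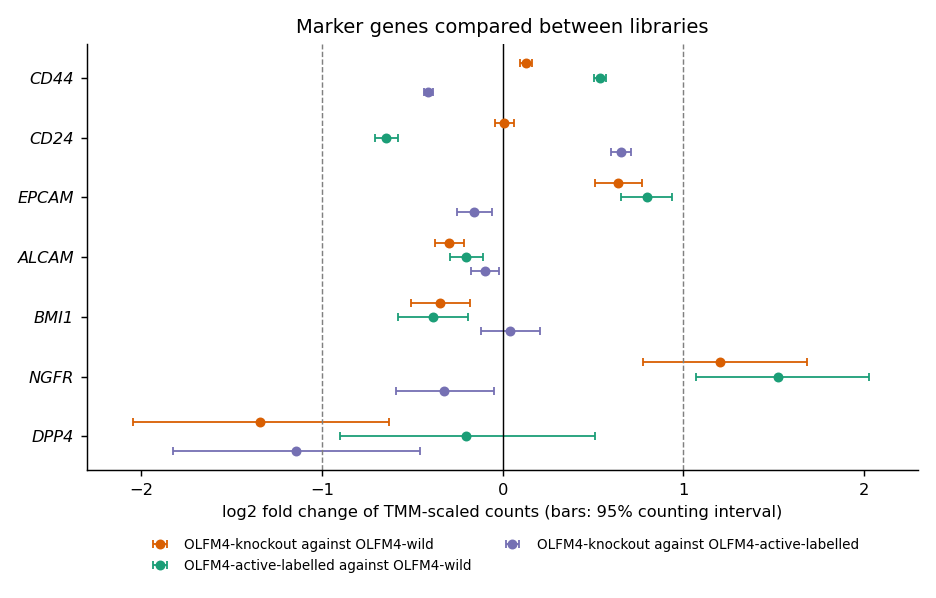
Log2 fold changes of the 7 genes averaging 1 CPM or more in the 3 comparisons, with 95% counting intervals; dashed lines mark 2-fold. NGFR lies beyond 1 in both comparisons with the wild library, and DPP4 below -1 in both comparisons of the knockout library.

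CD44, on the plus strand of chromosome 11 (GRCh38 chr11:35138882-35232402), was the most abundant of the 9 in CPM. It had 10733 counts in the wild library (591 CPM, 580 to 602), 33143 in the knockout library (646 CPM, 639 to 653) and 20502 in the active-labelled library (858 CPM, 846 to 870). The first 2 libraries were close and the third was highest. The log2 fold change for knockout versus wild was 0.13 (0.10 to 0.16) with TMM and -0.22 with library totals, so its direction depended on the scaling. The active-labelled library was higher than wild by 0.54 on the log2 scale (0.50 to 0.57), and by 0.42 with totals. For knockout versus active-labelled the log2 fold change was -0.41 (-0.44 to -0.39), and -0.65 with totals. CD44-AS1, a long noncoding gene on the opposite strand inside CD44, had 6.40, 6.53 and 6.76 counts per 100 CD44 counts in the 3 libraries, with overlapping counting intervals.

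A list of 19 genes was drawn up around CD44: the hyaluronan synthases and hyaluronidases, the ezrin family that ties CD44 to the cytoskeleton, the proteases that shed it and the ESRP splicing factors. Of the 14 averaging 1 CPM or more, 1 lay above and 1 below 2-fold for knockout versus wild, with a list median of -0.09. HAS3, a hyaluronan synthase, had 27.0, 104 and 107 CPM in the 3 libraries (wild, knockout, active-labelled). Its log2 fold changes against wild were 1.94 (1.81 to 2.08) and 1.98 (1.85 to 2.13), and for knockout versus active-labelled it was -0.04 (-0.11 to 0.03). CEMIP, which takes part in hyaluronan breakdown, was at the low end with 2.59, 1.11 and 1.17 CPM, from 47, 57 and 28 counts. The hyaluronan-binding gene HMMR had a log2 fold change of -0.55 and EZR, which encodes ezrin, 0.78 for knockout versus wild.

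CD24, on the minus strand of chromosome 6 (chr6:106969831-106975627), is a gene whose sequence recurs elsewhere in the genome. Of the 2082 windows of 75 bases along its canonical spliced transcript, 748 (35.9%) occurred exactly at another place, 732 of them on chromosome Y, where the annotation has the pseudogene CD24P4. The same share was 3.38% for BMI1, 2.13% for PROM1, 1.22% for EPCAM and 0 for the other 5 genes. The coding sequence of 240 bases, from chr6:106974578-106974646 and chr6:106971664-106971834 on the minus strand, is shown because much of it recurs on other chromosomes, and a count of uniquely mapped reads leaves out reads that fit several places equally well. Capitals mark the 212 bases that lie in a window found elsewhere.
CD24: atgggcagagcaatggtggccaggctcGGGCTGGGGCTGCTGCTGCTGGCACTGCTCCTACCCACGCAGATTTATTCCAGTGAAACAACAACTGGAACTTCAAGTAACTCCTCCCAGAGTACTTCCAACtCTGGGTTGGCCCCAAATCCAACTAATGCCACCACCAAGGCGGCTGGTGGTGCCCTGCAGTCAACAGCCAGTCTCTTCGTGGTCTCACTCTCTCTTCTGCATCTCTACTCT
Of the 166 windows that lie wholly inside the coding sequence, 64 (38.6%) were found elsewhere, so a capital marks a base in at least 1 such window and not one at which every window recurs. The windows are a property of the reference and are the same for every library, and their part in the CD24 values was not tested. Read pairs were counted and single windows were searched, so the share of windows is not the share of reads left out.

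CD24 had 4168 counts in the wild library (229 CPM, 222 to 236), 11860 in the knockout library (231 CPM, 227 to 235) and 3510 in the active-labelled library (147 CPM, 142 to 152). The intervals of the first 2 overlapped and the third was lower. The log2 fold change for knockout versus wild was 0.01 (-0.04 to 0.06) with TMM and -0.34 with totals. For active-labelled versus wild it was -0.64 (-0.71 to -0.58), and for knockout versus active-labelled 0.65 (0.60 to 0.71). CD44 and CD24 thus stood on opposite sides of wild in the active-labelled library.

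Ratios of counts inside a library do not depend on the scaling, and those given here were picked after the values were seen. CD44 had 2.58 counts for each CD24 count in the wild library (2.48 to 2.67), 2.79 in the knockout library (2.74 to 2.85) and 5.84 in the active-labelled library (5.64 to 6.06). ITGA6, which encodes the integrin subunit CD49f used with CD44 to sort basal cells, had 1.98, 3.43 and 1.88 counts for each CD44 count. The high library was therefore the active-labelled one for CD44 to CD24, and the knockout one for ITGA6 to CD44. ITGA6 was at 1168, 2211 and 1613 CPM, and its log2 fold change for knockout versus wild was 0.92 (0.90 to 0.94), against 0.13 for CD44.

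**Figure D3:**
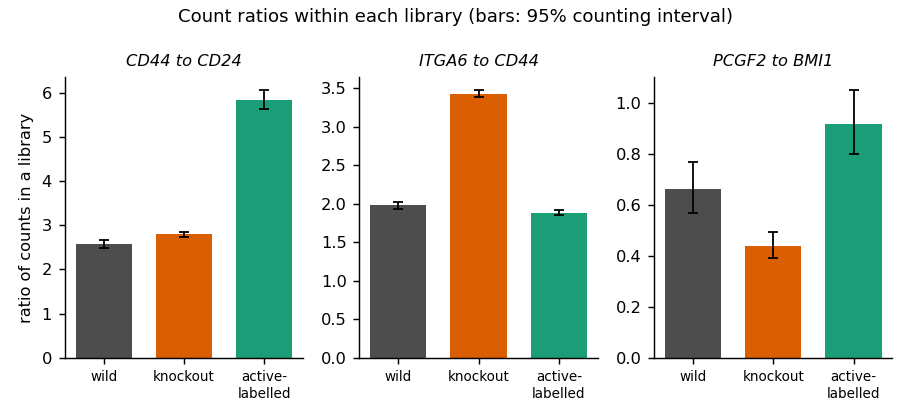
Ratio of counts of 2 genes within each library (bars from 0, with 95% counting intervals) for CD44 to CD24, ITGA6 to CD44 and PCGF2 to BMI1 in the 3 libraries (wild, knockout, active-labelled). CD44 to CD24 is highest in the active-labelled library at 5.84, and ITGA6 to CD44 in the knockout library at 3.43.

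EPCAM, on the plus strand of chromosome 2 (chr2:47345158-47387601), encodes an adhesion molecule found on most simple epithelia. It had 597 counts in the wild library (32.9 CPM, 30.3 to 35.6), 2630 in the knockout library (51.2 CPM, 49.3 to 53.2) and 1364 in the active-labelled library (57.1 CPM, 54.1 to 60.2). Both other libraries were above wild with intervals that did not overlap it. The log2 fold changes against wild were 0.64 (0.51 to 0.77) in the knockout library and 0.80 (0.66 to 0.94) in the active-labelled library, or 0.29 and 0.68 with totals. For knockout versus active-labelled it was -0.16 (-0.25 to -0.06), and -0.39 with totals.

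Of 14 genes for partners of EPCAM and the proteases that process it, 13 averaged 1 CPM or more, and 1 lay above and 1 below 2-fold in each comparison with wild. With totals 0 lay above and 1 below in the knockout library, where FHL2 came to 0.95. The median of the list was 0.27 in the knockout and 0.05 in the active-labelled library. CLDN1, a tight junction claudin, had 135, 23.2 and 40.2 CPM in the 3 libraries and was the lowest of the list in both comparisons, with log2 fold changes of -2.54 (-2.65 to -2.44) and -1.75 (-1.86 to -1.64). CLDN7, the claudin known to bind EPCAM, had 47.7, 76.1 and 55.8 CPM. FHL2, which binds the intracellular fragment of EPCAM, was the highest of the list at 41.8, 103 and 117 CPM, and ST14, the protease matriptase, had a log2 fold change of 0.75 for knockout versus wild.

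ALCAM, on the plus strand of chromosome 3 (chr3:105366909-105576900), encodes the immunoglobulin adhesion molecule CD166. It had 1773 counts in the wild library (97.6 CPM, 93.1 to 102), 4084 in the knockout library (79.6 CPM, 77.1 to 82.0) and 2030 in the active-labelled library (85.0 CPM, 81.3 to 88.7). The wild library was highest, and for knockout versus active-labelled the log2 fold change was -0.10 (-0.17 to -0.02), and -0.33 with totals. The log2 fold change for knockout versus wild was -0.29 (-0.38 to -0.21), and -0.65 with totals. In the active-labelled library it was -0.20 (-0.29 to -0.11), and -0.31 with totals. CD6, the leukocyte receptor that binds ALCAM, had 0, 3 and 9 counts. Of 14 related immunoglobulin adhesion genes 10 averaged 1 CPM or more and 0 lay above and 2 below 2-fold in each comparison with wild, or 3 below in the knockout library with totals. NECTIN4 was below 2-fold in both, at 38.6, 16.6 and 11 CPM, joined by ICAM1 (-1.01) in the knockout library and by MCAM (-1.19), which was named after its value was seen, in the active-labelled library. BCAM was the highest of the list in the knockout library with a log2 fold change of 0.35 that became -0.00 with totals.

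PROM1, on the minus strand of chromosome 4 (chr4:15963076-16084378), had 0 counts in all 3 libraries. A count of 0 allows up to 3 counts, or 0.165 CPM in the wild, 0.0584 CPM in the knockout and 0.126 CPM in the active-labelled library, so PROM1 RNA was not detectable at this depth. PROM2, its relative and another protein of membrane protrusions, was measured at 74.2, 109 and 71.1 CPM. The log2 fold change of PROM2 was 0.55 (0.47 to 0.64) in the knockout and -0.06 (-0.17 to 0.04) in the active-labelled library against wild, or 0.20 and -0.18 with totals. Of 6 genes listed with PROM2 and the tweety family partners of prominins 4 averaged 1 CPM or more, and TTYH3 alone lay beyond 2-fold in the knockout library, at -1.26.

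NGFR, on the plus strand of chromosome 17 (chr17:49495293-49515008), had 48 counts in the wild library (2.64 CPM, 1.95 to 3.50), 315 in the knockout library (6.14 CPM, 5.48 to 6.85) and 183 in the active-labelled library (7.66 CPM, 6.59 to 8.85). The wild library was lowest and its interval was apart from the others. The log2 fold change against wild was 1.20 (0.77 to 1.69) in the knockout library, higher than 96.5% of genes, and 1.52 (1.07 to 2.03) in the active-labelled library, higher than 98.9%. With library totals the first became 0.85, under 2-fold, and the second 1.41. NGFR-AS1, a noncoding gene on the opposite strand, had 10, 37 and 22 counts, or 0.550, 0.721 and 0.921 CPM. Its log2 fold changes against wild were 0.34 (-0.65 to 1.56) and 0.70 (-0.40 to 1.98), so neither differed beyond counting error. For NGFR, the log2 fold change for knockout versus active-labelled was -0.32 (-0.59 to -0.05).

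The neurotrophin list held the ligands and receptors that act with NGFR. Of 15 genes 11 averaged 1 CPM or more, with 1 above and 0 below 2-fold in the knockout library and 1 above and 1 below in the active-labelled library. BDNF, one of the ligands, was the gene below, with 32, 62 and 14 counts. Its log2 fold changes against wild were -0.55 (-1.18 to 0.12) and -1.56 (-2.61 to -0.64). The first interval includes 0, and the second does not lie wholly beyond 2-fold. Among the tyrosine kinase receptors NTRK2 had 4, 54 and 18 counts, or 0.220, 1.05 and 0.753 CPM, and NTRK3 had 0 in all 3 libraries. The NTRK2 log2 fold changes against wild, 2.10 (0.82 to 4.18) and 1.64 (0.17 to 3.80), rest on 4 counts in the wild library. The median of the list was -0.01 in the knockout and 0.36 in the active-labelled library.

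**Figure D4:**
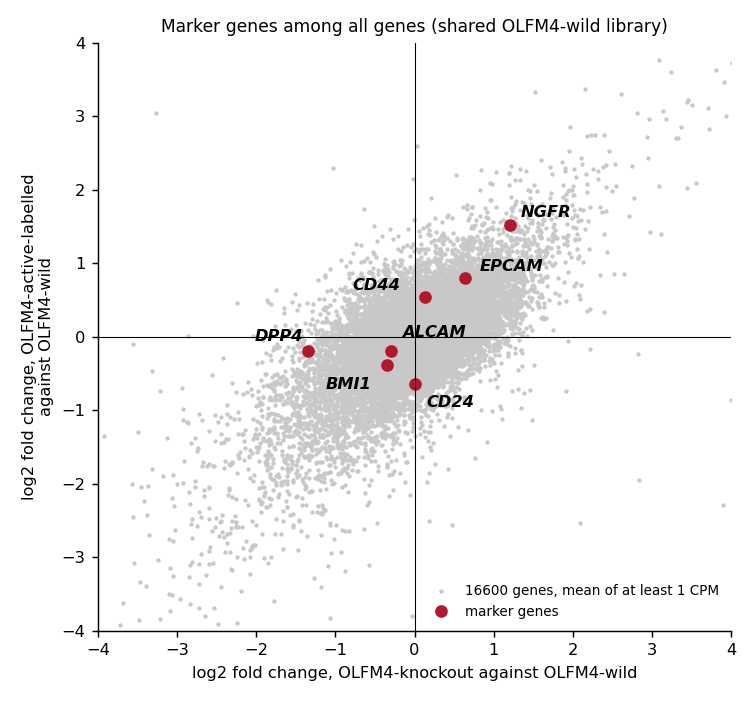
Log2 fold change against the wild library in the knockout library (horizontal) and in the active-labelled library (vertical) for 16600 genes (grey) and the 7 marker genes averaging 1 CPM or more (red). Both axes contain the same wild library, so they are not independent, and 60 genes lie outside the axes. NGFR sits at 1.20 and 1.52, and DPP4 at -1.34 and -0.20.

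For 4 of the genes, sequence upstream of the start used in the RefSeq promoter windows is shown. They were chosen because BMI1 and ALCAM were lower in both other libraries than in wild. DPP4 was lower in the knockout library than in both others, and ALDH1A1 had no count in the active-labelled library. The RefSeq promoter windows (GRCh38.p14, 250 bases before to 50 after the start) matched 7 of the 9 genes, all but EPCAM and NGFR. Each stretch below is the longest run of the upstream 250 bases outside annotated exons, written 5′ to 3′ on the strand of the gene. Capitals mark, on either strand, the letters CACGTG of the E-box, GGGCGG of the GC box, CCAAT of the box named for them and TATAAA of the TATA box. GGGCGG overlapped itself once, in BMI1. BMI1 is chr10:22320849-22321098 and ALCAM chr3:105366659-105366908, both on the plus strand, DPP4 chr2:162074395-162074465 and ALDH1A1 chr9:72953057-72953303, both on the minus strand. The starts of these windows need not be the ends of the gene spans given in this report. The ALDH1A1 stretch lies inside its gene span, chr9:72900671-73080442. The DPP4 stretch adjoins the end of its gene span at 162074394 and lies away from the start of its window.
BMI1: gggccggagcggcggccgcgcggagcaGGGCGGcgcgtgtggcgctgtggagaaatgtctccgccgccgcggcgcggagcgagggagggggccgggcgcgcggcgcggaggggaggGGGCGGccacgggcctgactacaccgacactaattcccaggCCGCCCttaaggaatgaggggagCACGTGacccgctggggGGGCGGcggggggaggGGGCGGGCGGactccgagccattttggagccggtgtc
ALCAM: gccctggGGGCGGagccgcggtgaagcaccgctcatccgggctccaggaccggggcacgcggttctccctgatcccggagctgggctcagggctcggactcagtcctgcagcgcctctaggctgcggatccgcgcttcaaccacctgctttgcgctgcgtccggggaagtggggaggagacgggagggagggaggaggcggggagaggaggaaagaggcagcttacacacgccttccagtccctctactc
DPP4: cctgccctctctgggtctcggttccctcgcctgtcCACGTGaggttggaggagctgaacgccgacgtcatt
ALDH1A1: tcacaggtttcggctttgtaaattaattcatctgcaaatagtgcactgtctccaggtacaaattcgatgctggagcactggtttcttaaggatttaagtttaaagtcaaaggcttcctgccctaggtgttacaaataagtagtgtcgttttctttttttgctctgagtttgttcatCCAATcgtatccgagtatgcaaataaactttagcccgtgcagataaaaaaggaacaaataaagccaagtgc
The stretches of BMI1 and DPP4 each hold 1 CACGTG, which is in no window of the other 5 matched genes (CD44, CD24, PROM1, ALCAM and ALDH1A1). A gene can have more than 1 window. CACGTG is in 2 of the 13 windows of the 7 genes and in 7.26% of all 35116 promoter windows of 300 bases. GGGCGG occurs 6 times upstream of BMI1. It is in 9 of the 13 windows, from 6 of the 7 genes, and in 45.0% of all windows. CCAAT is in 3 of the 13 windows, from 3 of the 7 genes with ALDH1A1 among them, and in 34.6% of all windows. TATAAA, found in 11.5% of all, is in none of the 13 windows of the 7 genes. The whole ALDH1A1 window had 40.3% G and C against 73.3% and 91% for the 2 windows of BMI1, of which the second holds no CACGTG, 70% for ALCAM, 75% for DPP4 and a median of 58.7% over all windows. A match is a description of the letters and not a binding site.

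BMI1, on the plus strand of chromosome 10 (chr10:22321099-22331484), encodes a subunit of polycomb repressive complex 1 known for its part in stem cell self-renewal. It had 447 counts in the wild library (24.6 CPM, 22.4 to 27.0), 995 in the knockout library (19.4 CPM, 18.2 to 20.6) and 450 in the active-labelled library (18.8 CPM, 17.1 to 20.7). The wild library was highest and the others overlapped. The log2 fold changes against wild were -0.34 (-0.51 to -0.18) and -0.39 (-0.58 to -0.19), and -0.70 and -0.50 with totals. The readthrough gene COMMD3-BMI1 shares 1000 of the 4395 exonic bases of BMI1 on the same strand, and reads there may have been assigned to neither gene. It had 556, 1455 and 689 counts, with log2 fold changes of -0.11 (-0.25 to 0.03) and -0.09 (-0.25 to 0.08) against wild, or -0.46 and -0.20 with totals, and its part in the BMI1 values was not tested.

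All 24 genes of the polycomb list averaged 1 CPM or more. Of these 0 lay above and 1 below 2-fold in the knockout library, and 0 in either direction in the active-labelled library, with medians of -0.05 and -0.04. With totals 6 lay below in the knockout library, PCGF2, CBX7 and PHC3 among them, and 1 in the active-labelled library. PCGF2, the paralogue that takes the place of BMI1 in the complex, had 16.3, 8.51 and 17.2 CPM. It was lowest in the knockout library, with log2 fold changes of -0.94 (-1.15 to -0.72) against wild and -1.02 (-1.22 to -0.82) against the active-labelled library. PCGF2 had 0.662 counts for each BMI1 count in the wild library (0.570 to 0.769), 0.439 in the knockout library (0.392 to 0.492) and 0.916 in the active-labelled library (0.799 to 1.05). Among the chromobox readers of the complex, CBX7 was the gene below 2-fold at 4.51, 2.03 and 2.85 CPM, while CBX8 (0.98) and CBX2 (0.78) had the highest log2 fold changes of the list for knockout versus wild. PHC3, a polyhomeotic subunit, stood at -0.97.

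DPP4, on the minus strand of chromosome 2 (chr2:161992245-162074394), cuts dipeptides from chemokines and hormones at the cell surface. It had 34 counts in the wild library (1.87 CPM, 1.30 to 2.61), 38 in the knockout library (0.740 CPM, 0.524 to 1.02) and 39 in the active-labelled library (1.63 CPM, 1.16 to 2.23). The raw counts were alike while the library totals were not, and the knockout library had the lowest level, with an interval apart from both others. Its log2 fold change was -1.34 (-2.04 to -0.63) against wild, where 4.19% of genes were lower, and -1.14 (-1.82 to -0.46) against the active-labelled library, where 2.22% were lower. Neither interval lay wholly beyond 2-fold, and the values were -1.69 and -1.38 with totals. For active-labelled versus wild the log2 fold change was -0.20 (-0.90 to 0.51), a difference not detectable at this depth. DPP4-DT, on the opposite strand at the start of the gene, had 0, 2 and 0 counts.

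Of 14 genes of the DPP4 family, prolyl peptidases and DPP4 partners, 10 averaged 1 CPM or more and 0 lay beyond 2-fold in any of the 3 comparisons with TMM. With totals 1 gene, FAP (-1.18), was below 2-fold against wild in the knockout library, and 2, FAP (-1.09) among them, in the active-labelled library. The medians were 0.07, 0.18 and 0.09. FAP, the nearest relative of DPP4 and a surface peptidase, had 42, 67 and 28 counts, or 2.31, 1.31 and 1.17 CPM, and the lowest log2 fold change of the list for knockout versus wild, -0.83. The cytosolic DPP8 followed at -0.64, and DPP3 (0.97) and CAV1 (0.92), a caveolin that binds DPP4, were at the high end.

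ALDH1A1, on the minus strand of chromosome 9 (chr9:72900671-73080442), had 7 counts in the wild library (0.385 CPM, 0.155 to 0.794), 25 in the knockout library (0.487 CPM, 0.315 to 0.719) and 0 in the active-labelled library. The first 2 did not differ beyond counting error, with a log2 fold change of 0.27 (-0.91 to 1.79). Against a floor of 3 counts in the active-labelled library, ALDH1A1 was at least 3.07-fold lower there than in wild and at least 3.88-fold lower than in the knockout library. That floor leaves out the counting error of the other library. With it, the nearest 95% limit was a log2 fold change of -0.92 for active-labelled versus wild, under 2-fold, and 1.55 for knockout versus active-labelled. ALDH1A3, another retinaldehyde dehydrogenase of the same family, was the abundant one at 32.4, 139 and 175 CPM. The log2 fold changes of ALDH1A3 against wild were 2.11 (1.99 to 2.23) and 2.43 (2.31 to 2.56), or 1.75 and 2.32 with totals. ALDH1A3 had 84.0 counts for each ALDH1A1 count in the wild library (40.5 to 210) and 286 in the knockout library (194 to 443).

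Of 34 aldehyde dehydrogenase and retinoic acid genes 25 averaged 1 CPM or more, and 4 lay above and 1 below 2-fold for knockout versus wild, or 3 and 2 with totals, where DHRS3 came to 0.66 and ALDH3B2 to -1.28. The median was 0.30, against 0.10 over all genes. Those above were ALDH1A3, CYP26B1, ALDH1A2 and DHRS3, both the latter named after their values were seen, and the one below was ALDH1L2 (-1.35). CYP26B1, which breaks down retinoic acid, had 5.12, 21.1 and 14.3 CPM. ALDH1A2, the third retinaldehyde dehydrogenase, had 11, 124 and 14 counts, and was highest in the knockout library, with a log2 fold change of 1.94 (1.11 to 3.04) against wild. DHRS3, a retinaldehyde reductase, had 6.99, 14.1 and 8.96 CPM. In the active-labelled library ALDH1A3 and CYP26B1 lay above 2-fold and ALDH3B2 (-1.59) and CRABP2 (-1.08), a retinoic acid binding protein named after its value was seen, below, with a median of 0.01.

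**Figure D5:**
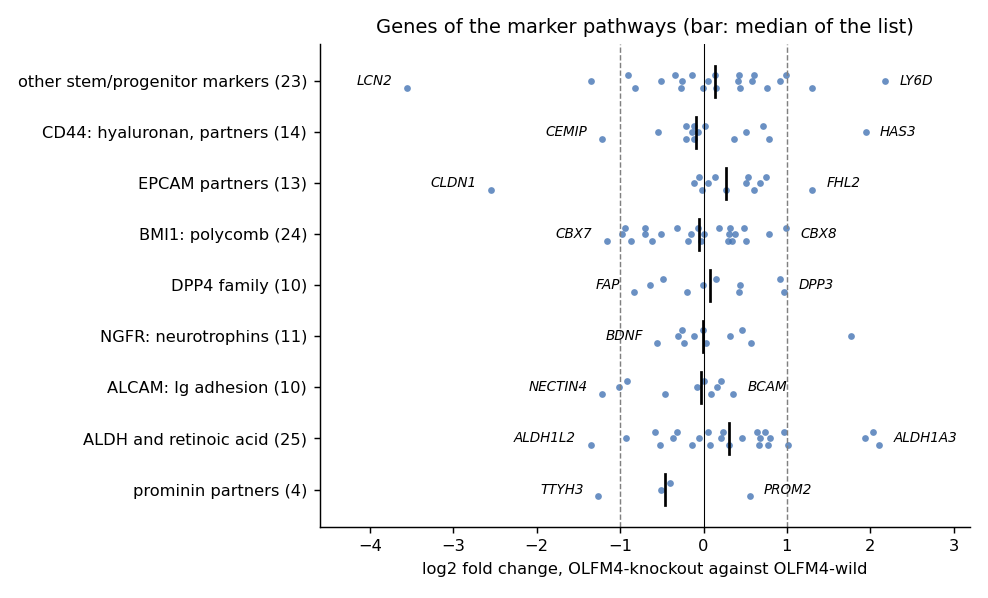
Log2 fold change for knockout versus wild of each gene averaging 1 CPM or more in the 9 lists around the markers; points are genes, black bars are list medians and dashed lines mark 2-fold. The list medians lie between -0.46 and 0.30, and LCN2 (-3.55) and LY6D (2.18) are the extremes.

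A further 32 genes used as markers of prostate or epithelial stem and progenitor cells were listed for comparison, and 23 averaged 1 CPM or more. For knockout versus wild, 2 lay above 2-fold, LY6D (2.18) and KRT13 (1.30), and 2 below, LCN2 (-3.55) and NT5E (-1.35), with a median of 0.14. With totals 1 lay above, as KRT13 came to 0.95, and 4 below, with a median of -0.21. LY6D, a marker of castration-resistant progenitors, had 112, 508 and 144 CPM, and KRT13, a keratin of hillock cells, had 255, 628 and 156 CPM. Both were highest in the knockout library. LCN2, a secreted marker of club cells, had 168, 40 and 40 counts, or 9.25, 0.779 and 1.67 CPM. In the active-labelled library the genes above 2-fold were SOX9 (1.58) and ITGA2 (1.47), and those below were LCN2 (-2.45) and PSCA (-2.05). SOX9, a transcription factor of prostate bud and basal progenitors, had 20.5, 20.4 and 61.4 CPM and was named, like ITGA2 and PSCA, after its value was seen.

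The genes most like each marker were sought among the protein-coding genes averaging 10 CPM or more by the distance between their pairs of log2 fold changes against wild over the 3 libraries, as a description. CD44 was nearest to MORC2, ZNF706 and FAM120B, CD24 to ZBTB7B, H2BC11 and RAD52, and EPCAM to ABCC4, DTX4 and C8orf33. BMI1 was nearest to C11orf80, CCDC25 and RRAS, and ALCAM to GGA3, RBM6 and PANK3. Within a distance of 0.1 there were 93 of 9661 genes for CD44, 33 for CD24, 54 for EPCAM, 111 for BMI1 and 167 for ALCAM. DPP4 (nearest NCOA6, MBD6 and TAF3) and NGFR (nearest MICAL2, PPP1R3C and SLC35C1) each had 4 of 9662 genes that near. These 2 averaged 1.41 and 5.48 CPM, under the level of the genes searched. For knockout versus wild, 7.64% of genes averaging 10 CPM or more lay beyond 2-fold, against 23.4% from 1 to 10 CPM. The DPP4 interval there, -2.04 to -0.63, is far wider than a distance of 0.1.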

How the data were processed

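Per the labels and the study's methods, ribosome-depleted, stranded total RNA libraries were aligned to GRCh38 with HISAT2 after cutadapt trimming, and featureCounts gave for each gene the number of unique read pairs on its strand. The authors deposited these raw counts. The methods do not name the annotation release, and positions, exon unions and transcripts were taken from GENCODE (56948 genes matched, 98.1%). Counts were scaled with TMM factors of 1.11, 0.872 and 1.03 (edgeR 4.0.16, R 4.3.3), and log2 fold changes used an offset of 0.5 counts. Intervals used scipy 1.17.1. The procedure was tested on data simulated with counting error alone, which cannot show how it fares with spread between cultures. A gene lay beyond 2-fold at a log2 fold change above 1 or below -1. With 1 library per condition no test was fitted. Windows of 75 bases were searched exactly on both strands of the genome. Alternatives were library totals, DESeq2 1.42.0 size factors, upper quartile factors, offsets of 1 and 5 counts, sizes that leave out the 10 most abundant genes, and thinning to the shallowest library with the full-depth factors kept.

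Members and lists were chosen with earlier results of these data known. Named are the 9 markers, 6 relatives or overlapping genes, up to 2 genes at each end of every list by the log2 fold change of OLFM4-knockout against OLFM4-wild at a mean of at least 1 CPM, and 3 nearest genes per marker. CLDN7, CD6, NTRK2, NTRK3, the antisense and divergent genes and the ratios were added after their values were seen. Values of some genes that belong to the lists are not reported here, while the counts and medians of the lists include them.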

Additional observations from a re-analysis of the deposited data

How the results depend on the processing

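Over 154 member log2 fold changes recomputed under the alternatives, 134 moved by less than their counting interval, 19 moved by more without a change of sign of a value apart from 0, and 1 reversed: for knockout versus wild, CD44 was 0.13 with TMM and -0.22 with library totals. The number of members beyond 2-fold in that comparison was 2, and 1 with library totals, where NGFR came to 0.85. It was 2 under each other alternative and in both other comparisons. With no filter on low genes beyond 1 count in either library, the share of genes beyond 2-fold was 34.4% in place of 13.3% for knockout versus wild, 37.1% in place of 10.5% for active-labelled versus wild and 30.5% in place of 6.34% for knockout versus active-labelled, and with a mean of at least 10 CPM it was 7.64%, 4.84% and 3.14%. No paired analysis was possible because each condition has 1 library. Depth limits DPP4 and ALDH1A1 most, with 39 counts or fewer in every library, and the counting intervals leave out the spread between cultures.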
